A study of Mus musculus with 8 samples.

Results

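RNA of the first-week mouse retina was profiled by bulk RNA-seq, and the 4 littermate control samples of a series of 8 are described here across all genes. The members were chosen by their labels alone, which give tissue (retina), genotype (Control) and age (postnatal day 7). The other 4 samples are *Mettl3*-CKO retinas, in which *Six3-Cre* removed a floxed *Mettl3* from retinal progenitors, and they enter no value below. The controls are littermates of those mice, with no treatment named, but the labels and the study's methods do not say which of the Cre and floxed alleles they carried, nor their sex, nor how many retinas were put into a sample. The methods name the day before the labelled one as the age. Since the sources do not say that the 4 samples came from 4 litters, the SDs printed here measure the spread between these samples, and with a single group no groups were compared.

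The mouse retina is built from a shared pool of retinal progenitor cells, which give rise to ganglion, horizontal and amacrine cells and cones mostly before birth, and to rods, bipolar cells and Müller glia mostly around and after birth. In the first week after birth the centre of the retina has largely finished dividing, while progenitors persist at the edge, rods are present in large numbers but have yet to grow their outer segments, and Müller glia and bipolar cells are still differentiating. The retina also holds blood vessels, microglia and, in its innermost layer, astrocytes that enter from the optic nerve, and it lies against the pigment epithelium on one side and near the lens on the other. RNA from whole tissue sums all of these cells. A lower level of a cell type's genes can come from fewer such cells or from less of that RNA per cell, and these cannot be told apart here.

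Each library held between 16227095 and 19310791 counts assigned to genes, so that 3 counts, taken as the floor of detection, corresponded to between 0.155 and 0.185 CPM. Intervals and floors of this kind cover counting error only. No pair of controls held the same counts within sampling noise: per gene, the chi-square of a pair ran from 5.01 (controls 2 and 3) to 41.2 (controls 1 and 4). A pair of libraries stood apart, and some of the values that rest on them are given with and without them. Control 4 held 6418 CPM of counts on a list of 28 lens genes against 12.5 to 120 CPM in the other libraries, and differed from them in *Xist* and in the genes of the Y chromosome. Control 1 lay farthest from the rest, with R2 of 0.954 to 0.968 of its log2(FPKM + 1) values against the others over 16150 genes, where pairs of the other libraries had 0.979 to 0.987. The deposited values are whole-number counts, from which CPM (counts scaled to 1000000 per library) and FPKM (CPM divided by gene length in kilobases) were computed. CPM is used to compare libraries, and FPKM to compare genes.

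Of 54532 genes in the annotation of the deposited table, 22375 had no count in any control, 22388 had a count in all 4, and 14914 were at 1 CPM or more in all 4. The last group, called detected below, is 27.3% of all genes and 59.6% of protein-coding genes. For lists of protein-coding genes, the second share is the closer background against which their counts of detected genes can be read. Counts were spread widely over these genes. By mean CPM, 1553 genes held 50% of the counts and 7081 held 90%, and the 10 highest genes held 3.48% ± 0.284 (SD, n = 4). The share of those 10 genes was 3.90% in control 1 and 3.28%, 3.31% and 3.45% in controls 2, 3 and 4, so control 1 was the highest. The mean FPKM reached 10 in 5960 genes, 100 in 331 and 1000 in 9, while the median of detected genes was 7.16 FPKM.

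The top of the ranking held genes used by every cell. The transcripts of the mitochondrial genome led it: *mt-Co1*, a subunit of cytochrome c oxidase, was at 4711 ± 1050 FPKM (SD, n = 4), followed by *mt-Nd1* at 3020 ± 488 FPKM and *mt-Cytb* at 2565 ± 405 FPKM, subunits of complexes I and III. In single libraries *mt-Co1* was at 6284, 4307, 4137 and 4117 FPKM, and control 1 was above the other 3, which lay close together. All genes of the mitochondrial genome together took 2.38% of the counts in control 1 and 1.69% to 1.76% in the others. *Eef1a1*, the factor that brings aminoacyl-tRNA to the ribosome, was at 1831 ± 291 FPKM, and 3 nuclear genes of other functions followed at lower levels. These were *Ckb*, the brain creatine kinase that buffers ATP, at 1106 ± 114 FPKM, *Ptma*, encoding prothymosin alpha, at 1065 ± 44.4 FPKM, and *H3f3b*, which encodes the replication-independent histone H3.3, at 1030 ± 133 FPKM. *Tuba1a*, the alpha-tubulin of young neurons, was at 1028 ± 172 FPKM and *Nnat* (neuronatin) at 558 ± 29.5 FPKM. The only genes of other biotypes among the 25 highest by FPKM were *mt-Rnr2*, the large mitochondrial rRNA, the nuclear long noncoding RNA *Malat1*, and *Gm9800*, a short processed pseudogene at 552 ± 85.6 FPKM. Processed pseudogenes are copies of mRNAs, and counts on *Gm9800* cannot be told apart from counts on close relatives, so its level is uncertain.

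**Figure D1:**
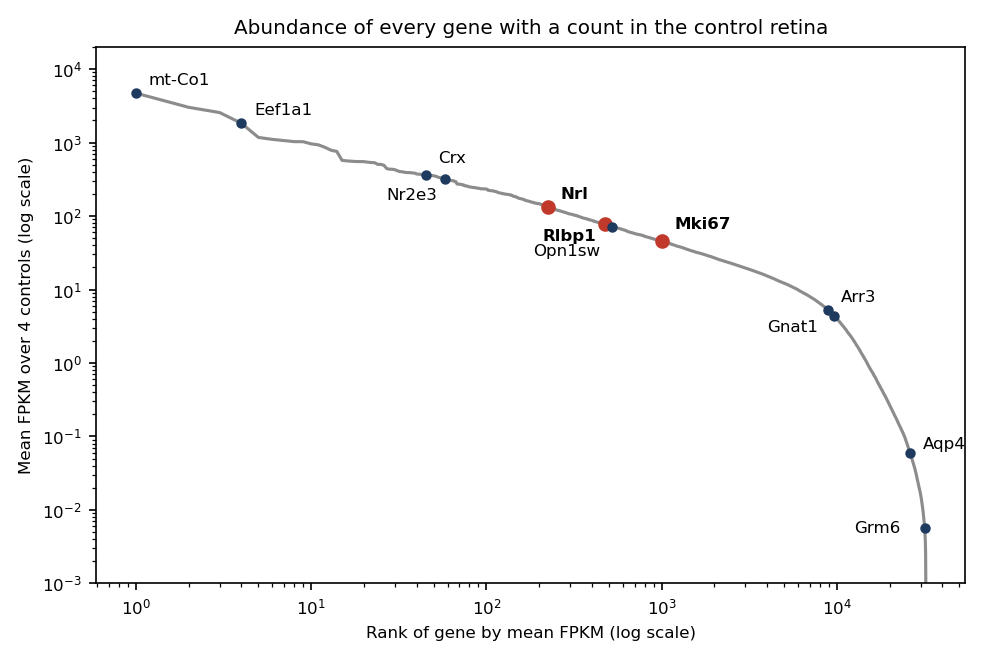
Mean FPKM over the 4 controls (log scale) against the rank of each gene (log scale), with the 3 marker genes in red and other named genes labelled. mt-Co1 led at 4711 FPKM, Crx stood at rank 45 and Nr2e3 at rank 58, and Aqp4 and Grm6 lay near the bottom of the curve.

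The 3 genes given as markers of this tissue were all detected. *Nrl*, the transcription factor that commits photoreceptor precursors to the rod fate, lies on chr14:55518978-55524981 of GRCm38 on the minus strand and ranked 224 of all genes by mean FPKM. It was at 164, 118, 113 and 139 FPKM in controls 1 to 4 (133 ± 23.1, SD, n = 4). *Rlbp1*, which encodes the retinaldehyde-binding protein of Müller glia, lies on chr7:79374870-79387048 (minus strand), ranked 475, and was at 112, 65.7, 65.0 and 65.2 FPKM (76.9 ± 23.3). Control 1 alone was high in *Rlbp1*, and the other 3 libraries were within 1 FPKM of each other. *Mki67*, a nuclear protein of dividing cells, lies on chr7:135689784-135716361 (minus strand), ranked 1007, and was at 38.9, 50.9, 43.5 and 48.4 FPKM (45.4 ± 5.32), lowest in control 1. Thus *Nrl* and *Rlbp1* were highest and *Mki67* lowest in the same library.

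The promoters of 3 genes are shown because they stand for the classes that lead this tissue: *Crx*, the most abundant transcription factor, for photoreceptors, *Rlbp1* for Müller glia and *Mki67* for dividing cells. The sequences are from RefSeq for GRCm38.p6, in each case from the 250 bases before the annotated start, 5′ to 3′ on the strand of the gene, with bases annotated as untranslated in any transcript left out. Capitals mark matches, on either strand, to TAATCC (the site of OTX and CRX homeodomain proteins, which reads GGATTA on the other strand), TGCTGA (the core of the MAF element bound by NRL) and CCAAT (the site of NF-Y, which reads ATTGG on the other strand), and TTCCCGC, an E2F site, was searched too. The motifs share no bases with each other in these windows. The first sequence lies on chr7:15879969-15880205, the second on chr7:79387049-79387277 and the third on chr7:135716380-135716629, all on the minus strand.
Crx: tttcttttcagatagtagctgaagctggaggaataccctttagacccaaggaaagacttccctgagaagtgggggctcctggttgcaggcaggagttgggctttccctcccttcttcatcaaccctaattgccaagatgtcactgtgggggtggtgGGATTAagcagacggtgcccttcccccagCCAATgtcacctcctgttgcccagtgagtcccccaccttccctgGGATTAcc
Rlbp1: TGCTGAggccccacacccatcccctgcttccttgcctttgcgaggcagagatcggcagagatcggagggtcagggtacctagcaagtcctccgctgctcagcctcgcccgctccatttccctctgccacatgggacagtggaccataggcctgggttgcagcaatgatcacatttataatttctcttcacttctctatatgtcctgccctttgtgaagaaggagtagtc
Mki67: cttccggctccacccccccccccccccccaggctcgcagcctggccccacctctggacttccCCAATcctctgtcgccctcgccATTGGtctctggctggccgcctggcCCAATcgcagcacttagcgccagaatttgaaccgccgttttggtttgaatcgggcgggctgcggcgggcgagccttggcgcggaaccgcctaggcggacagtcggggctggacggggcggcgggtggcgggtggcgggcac
The *Crx* window held TAATCC in the minus orientation at 94 and at 21 bases before the start and CCAAT at 65 bases, the *Rlbp1* window held TGCTGA at its far end, and the *Mki67* window held CCAAT 3 times, at 188, 166 and 141 bases, the middle one in the minus orientation. Over 32851 such windows of all genes, TAATCC was in 6.25%, TGCTGA in 16.1%, CCAAT in 33.8% and TTCCCGC in 3.82%, and TTCCCGC was in none of the 3 windows. These are matches of letters, and no binding was measured.

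Genes of rods were all detected, but they spanned a wide range of levels. The list of 16 rod genes had a median of 19.1 ± 3.94 FPKM (SD, n = 4, and 17.3 FPKM without control 1). All 16 were detected, against 27.3% of all genes and 59.6% of protein-coding genes. *Rom1*, a structural protein of the outer segment disc rim, was at 245 ± 57.4 FPKM. *Nr2e3*, the nuclear receptor that acts with NRL to repress cone genes in rods, was the highest of the list at 335, 319, 296 and 332 FPKM, a rank of 58 among all genes, with little difference between libraries. Among the genes of the phototransduction cascade, *Pde6g*, the inhibitory subunit of the rod phosphodiesterase, was at 85.8, 48.6, 40.9 and 49.0 FPKM, *Sag* (rod arrestin) at 54.9 ± 13.6 FPKM, and *Pde6b*, a catalytic subunit of the same enzyme, with a mean of 50.1 FPKM. The other catalytic subunit, *Pde6a*, had a mean of 2.54 FPKM. *Gnat1*, the alpha subunit of rod transducin, was at 6.45, 3.87, 2.73 and 4.60 FPKM, while *Gngt1*, the gamma subunit, was at 14.5 ± 5.12 FPKM. The channel subunits *Cngb1* and *Cnga1* had means of 17.2 and 4.85 FPKM, and *Slc24a1*, the rod sodium/calcium-potassium exchanger, was the lowest of the list at 0.415 ± 0.0658 FPKM.

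Genes shared by rods and cones stood higher still. The 15 shared photoreceptor genes were all detected, with a median of 28.2 ± 5.32 FPKM. *Crx*, the homeodomain factor required for photoreceptor genes, was at 391, 342, 351 and 354 FPKM. *Pdc* (phosducin, which binds transducin beta-gamma) and *Unc119* (a trafficking factor of lipidated proteins) had means of 163 and 136 FPKM. *Prph2*, the partner of ROM1 in the disc rim, was at 211, 141, 121 and 127 FPKM, highest in control 1. *Tulp1*, which acts in transport to the outer segment, was among the steadiest at 65.3 ± 1.67 FPKM, whereas *Guca1a*, the calcium sensor of guanylate cyclase, was at 32.5, 15.5, 11.2 and 16.0 FPKM. Control 1 was above the other 3 in *Prph2* and *Guca1a* but not by much in *Crx*.

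Of 12 cone genes, 11 were detected, and the median was 8.10 FPKM, from 7.43 to 9.59 FPKM in single libraries. *Gnb3* and *Gngt2*, the beta and gamma subunits of cone transducin, were at 196 ± 19.9 and 138 ± 9.52 FPKM. *Opn1sw*, the short-wave cone opsin, was at 77.9, 73.0, 68.4 and 65.1 FPKM, which was above the median of the cone list in every library. The medium-wave opsin *Opn1mw* was the gene of the list that was not detected: its counts came from control 2 alone. *Gnat2* (cone transducin alpha) had a mean of 12.2 FPKM, *Arr3* (cone arrestin) was at 5.24 ± 0.826 FPKM, and *Thrb*, the thyroid hormone receptor that specifies medium-wave cones, had a mean of 4.76 FPKM.

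Genes of precursors that had just left the cell cycle formed the highest of the retinal lists. The 15 postmitotic precursor genes were all detected, with medians of 36.9, 53.3, 67.3 and 64.2 FPKM in controls 1 to 4 (55.4 ± 13.7; 61.6 without control 1), and control 1 was the lowest. *Otx2*, the homeodomain factor upstream of *Crx*, was at 253 ± 27.5 FPKM, and the basic helix-loop-helix factors *Neurod4* and *Neurod1*, which act in bipolar cells and photoreceptors, were at 235 ± 26.5 and 232 ± 3.23 FPKM. *Neurod1* was almost equal in the 4 libraries, at 231, 227, 235 and 233 FPKM. *Neurog2*, a proneural factor, was at 12.5, 17.2, 28.7 and 26.7 FPKM. Control 1 was lowest in this gene, and it was more than 2-fold below the median of the other 3 on the scale used for deviations below. *Atoh7*, the factor of the ganglion cell lineage, which is mostly active before birth, was at 6.43 ± 1.01 FPKM.

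Regulators of progenitors and genes of the cell cycle were also all detected, 16 of 16 and 21 of 21. The 16 progenitor regulators had a median of 32.3 ± 3.83 FPKM, with 27.1 FPKM in control 1 and 32.0 to 35.9 FPKM in the others. *Ccnd1*, the D-type cyclin of the retina, was at 154, 235, 228 and 224 FPKM, and the eye-field homeodomain gene *Rax* had a mean of 102 FPKM. The homeodomain factor *Pax6* had a mean of 56.2 FPKM. *Notch1*, the receptor that keeps progenitors from differentiating, was at 15.6, 30.1, 33.5 and 31.1 FPKM. The secreted Wnt modulator *Sfrp2* was at 2.60, 7.01, 7.46 and 6.67 FPKM, and *Fgf15*, a growth factor of progenitors, at 2.64, 6.25, 4.88 and 4.93 FPKM. For each of *Ccnd1*, *Notch1*, *Sfrp2* and *Fgf15* the value of control 1 lay below all 3 others, and the 3 others were close to each other. The 21 cell cycle genes had medians of 16.8, 21.8, 20.3 and 18.6 FPKM (19.4 ± 2.17). They ranged from *Pcna*, the sliding clamp of DNA replication, at 92.8 ± 7.47 FPKM, to *Tyms* (thymidylate synthase) with a mean of 5.28 FPKM, and *Top2a*, the topoisomerase of mitotic chromosomes, had a mean of 47.3 FPKM.

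Of the 13 Müller glial genes, 12 were detected, and the median was 28.4 ± 5.58 FPKM (25.7 without control 1). *Dkk3*, a secreted glycoprotein also made by progenitors, was highest at 190, 234, 245 and 218 FPKM. *Apoe*, the lipid carrier of glia, was at 203, 132, 128 and 129 FPKM, high in control 1 in the same way as *Rlbp1*. *Glul*, the glutamine synthetase that clears glutamate, was at 121, 125, 122 and 113 FPKM, with control 1 inside the range of the others. Genes of the glial membrane differed widely in level: *Slc1a3*, the glutamate transporter, had a mean of 28.4 FPKM, at the median of the list, *Kcnj10*, the potassium channel, had 2.70 FPKM, and *Aqp4*, the water channel, was the undetected member at 0.0587 ± 0.00979 FPKM.

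Neurons of the inner retina were represented unevenly. Of 15 amacrine genes 13 were detected (median 13.7 ± 1.82 FPKM), among them *Tfap2b*, an AP-2 factor, at 73.4 ± 13.8 FPKM. The 2 GABA-synthesising enzymes *Gad1* and *Gad2* had means of 15.2 and 11.2 FPKM, and *Gad2* was at 6.01, 9.68, 14.0 and 15.3 FPKM, lowest in control 1. *Chat*, of cholinergic starburst cells, and *Th*, of dopaminergic cells, were near the bottom with means of 1.09 and 0.467 FPKM. All 14 retinal ganglion cell genes were detected (median 8.01 ± 1.62 FPKM), from the axonal proteins *Gap43* at 103 ± 12.8 FPKM and *Sncg* with a mean of 84.2 FPKM to the melanopsin gene *Opn4* with 1.82 FPKM. *Pou4f1* and *Pou4f2*, the POU factors of ganglion cells, had means of 13.7 and 7.31 FPKM. All 7 horizontal cell genes were detected, with a median of 2.13 ± 0.115 FPKM. *Prox1*, which is also expressed in other inner retinal cells, had a mean of 16.7 FPKM, and *Lhx1* and *Calb1* had means of 1.43 and 1.37 FPKM.

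Bipolar cell genes were low and, like the Müller glial and cone lists, spread widely in level. Of 17 genes 12 were detected, and the median was 1.32 ± 0.159 FPKM, the lowest of the lists of retinal neurons and glia. The transcription factors *Lhx4* and *Irx5* had means of 17.5 and 16.6 FPKM, and *Prkca*, the protein kinase that marks rod bipolar cells, 7.12 FPKM. *Trpm1*, the cation channel of the ON bipolar dendrite, had a mean of 0.374 FPKM, *Vsx1*, a homeodomain factor of cone bipolar cells, 0.0894 FPKM, and *Grm6*, the glutamate receptor of ON bipolar cells, had counts in control 4 alone.

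**Figure D2:**
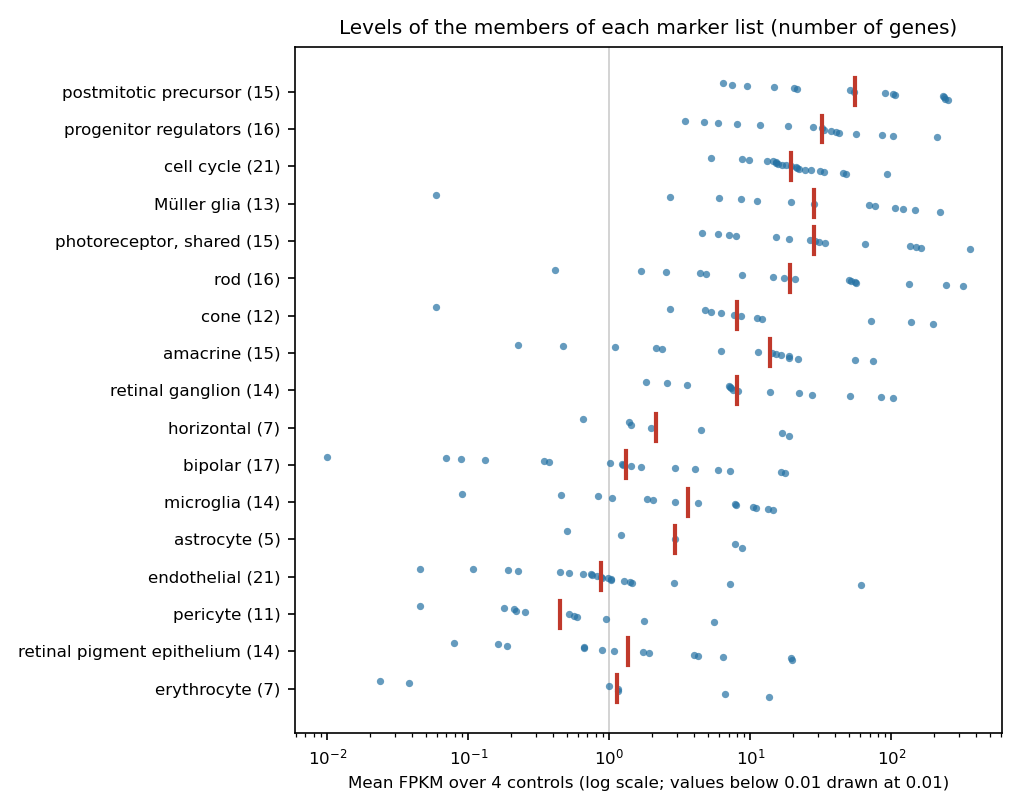
Mean FPKM over the 4 controls (log scale) of each member (dots) of 17 lists, with the median of each list as a red bar and a line at 1 FPKM. The medians of the precursor (55.4 FPKM) and progenitor (32.3 FPKM) lists lay above those of bipolar (1.32 FPKM) and horizontal (2.13 FPKM) cells, and members of 1 list spread over several orders of magnitude.

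In order of their medians, the retinal lists ran from postmitotic precursor through progenitor regulators, Müller glia, shared photoreceptor, cell cycle, rod, amacrine, cone and retinal ganglion to horizontal and bipolar. The ranges over libraries of Müller glia (23.7 to 36.5 FPKM) and shared photoreceptor (22.4 to 35.3 FPKM) overlapped almost wholly, as did those of cell cycle (16.8 to 21.8 FPKM) and rod (14.6 to 24.2 FPKM). The range of progenitor regulators (27.1 to 35.9 FPKM) lay inside that of Müller glia, and that of cone (7.43 to 9.59 FPKM) inside that of retinal ganglion (6.64 to 10.4 FPKM), so the order of these neighbours was within the spread between samples. A list's median depends on the genes chosen for it, and it does not measure how many cells of a type were present.

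Transcription factors of photoreceptors and of differentiating neurons led all factors annotated as such in the deposited table. The 15 highest by FPKM were *Crx* (360 ± 21.8 FPKM), *Nr2e3* (321 ± 18.1 FPKM), *Otx2*, *Hes6* (239 ± 10.9 FPKM), *Neurod4*, *Neurod1*, *Ybx1*, *Hmgb2*, *Maz*, *Nrl*, *Hmgb3*, *Atf4*, *Sox4*, *Rax* and *Hmga1*. *Hes6*, which promotes neuronal differentiation, *Sox4*, a factor of newly born neurons, and *Rax* are joined there by the chromatin proteins *Hmgb2*, *Hmgb3* and *Hmga1*, with means of 154, 116 and 97.3 FPKM, which are typical of immature and dividing cells.

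Cells that enter the retina from outside contributed low levels, with control 1 above the other libraries. Of 14 microglial genes 11 were detected, and the medians were 6.13, 3.25, 2.22 and 2.76 FPKM (3.59 ± 1.74; 2.74 without control 1). The complement genes *C1qa* and *C1qb* were at 23.8, 12.6, 8.30 and 12.9 FPKM and at 24.4, 12.1, 6.54 and 10.6 FPKM, and the receptor genes *Csf1r* and *Cx3cr1* had means of 4.27 and 2.02 FPKM. *Tmem119*, which marks resident microglia, and *Ptprc* (CD45) were near the floor with means of 0.454 and 0.0897 FPKM. Of 21 endothelial genes 16 were detected, with medians of 1.60, 0.735, 0.492 and 0.638 FPKM (0.866 ± 0.498; 0.622 without control 1). The endothelial cadherin *Cdh5* was at 2.64, 1.01, 0.697 and 0.767 FPKM. *Kdr*, the VEGF receptor, which retinal progenitors also express, was an exception at 51.6, 59.0, 68.9 and 62.8 FPKM, lowest in control 1 where *Cdh5* was highest. Of 11 pericyte genes 5 were detected, and *Rgs5*, a regulator of G-protein signalling in pericytes, was at 11.3, 3.63, 2.44 and 4.74 FPKM. All 5 astrocyte genes were detected, and *Gfap*, the intermediate filament of astrocytes, was at 14.1, 5.96, 4.88 and 6.34 FPKM. In each of these 4 lists control 1 had the highest median, and control 3 had the lowest in all but the pericyte list.

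Genes of pigment epithelium, red blood cells, cornea and skeletal muscle were mostly low, and where their RNA came from was not tested. Of 14 genes of the retinal pigment epithelium 10 were detected, with a median of 1.36 ± 0.211 FPKM: *Pmel*, a melanosome protein, and *Ttr* (transthyretin) had means of 19.6 and 19.3 FPKM, while *Rpe65*, the isomerase of the visual cycle, had a mean of 0.188 FPKM. Red blood cell genes were low, with 3 of 7 detected. *Hba-a1* (alpha globin) had a mean of 13.5 FPKM and *Hbb-bs* (beta globin) was at 2.70, 4.25, 9.54 and 9.98 FPKM, lowest in control 1, the library in which endothelial genes were highest. The median over all 7 genes did not follow *Hbb-bs* and was highest in control 1 at 1.55 FPKM, against 0.83 to 1.27 FPKM in the others. Of 8 cornea genes 1 was detected and 4 had no count in any control, and of 7 skeletal muscle genes 3 were detected.

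Lens genes divided the controls sharply. Of 28 lens genes, 27 were highest in control 4, and the remaining member, *Foxe3*, had no count in any control. The list as a whole held 120, 18.5, 12.5 and 6418 CPM, so that controls 1, 2 and 3 held 1.88%, 0.289% and 0.195% of the level in control 4. *Cryaa*, the alpha-A crystallin, was at 430, 19, 9 and 19329 counts (22.3, 1.17, 0.471 and 1176 CPM). *Crygd*, a gamma crystallin of lens fibre cells, was at 10.6, 0.247, 0.157 and 786 CPM, and *Crybb1*, a beta crystallin, at 9.53, 1.73, 0.576 and 418 CPM. *Bfsp1*, the beaded filament protein of fibre cells, was at 3.88, 2.22, 1.47 and 119 CPM. Control 1 was the second highest in each of these 4 genes, and the order of the libraries was the same in all of them. The median of the list was 12.8 ± 24.3 FPKM with control 4 and 0.623 FPKM without it. How RNA of these genes came to be in control 4 was not tested. Gamma crystallin genes are close relatives, and the split of reads among *Cryga* to *Crygf* is uncertain.

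Control 4 also differed from the other 3 in genes of the sex chromosomes. *Xist*, the noncoding RNA of the inactive X chromosome, was at 37, 22, 24 and 60757 counts in controls 1 to 4 (1.92, 1.36, 1.26 and 3695 CPM). The Y-linked genes *Eif2s3y* (130, 132 and 127 CPM), *Ddx3y* (126, 102 and 92.7 CPM), *Kdm5d* (82.3, 76.2 and 77.8 CPM) and *Uty* (37.9, 32.1 and 32.2 CPM) were expressed in controls 1, 2 and 3 and had 0 counts in control 4, which allows up to 0.182 CPM there. The labels give no sex, and lens genes and sex-linked genes set the same library apart, so their parts in any difference of control 4 cannot be told apart.

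**Figure D3:**
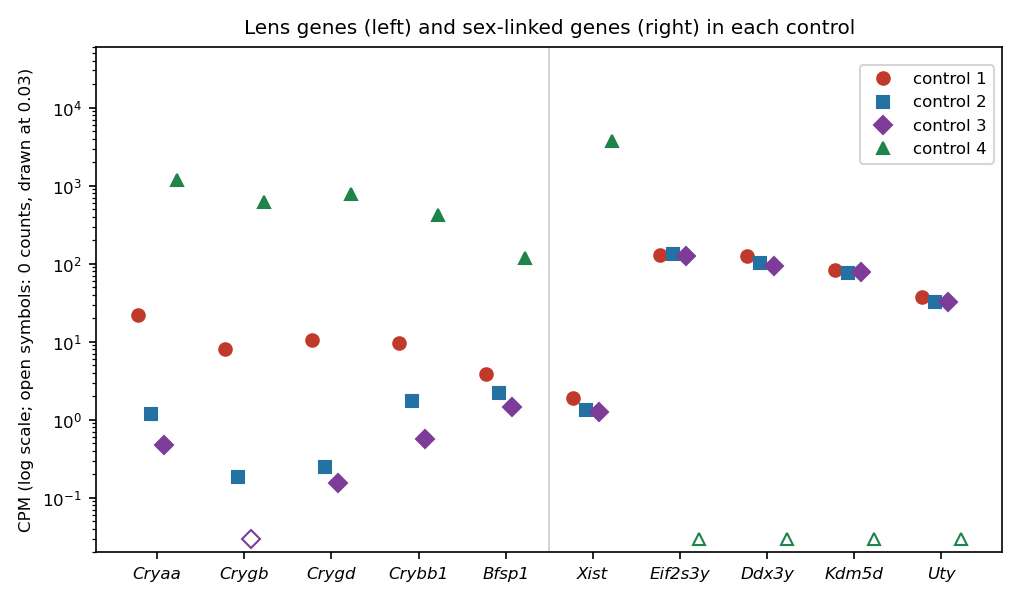
CPM (log scale) of 5 lens genes, Xist and 4 Y-linked genes in each control, with open symbols at 0.03 for libraries with 0 counts. Control 4 was at 1176 CPM of Cryaa and 3695 CPM of Xist, and had 0 counts of the 4 Y-linked genes that the other 3 controls expressed.

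Protein-coding genes took nearly all counts. Of 22046 protein-coding genes 13132 were detected (59.6%), and they made up 88.1% of all detected genes. Protein-coding genes took 96.8% ± 0.506 (SD, n = 4) of the counts. The lincRNAs (long intergenic noncoding RNAs) followed with 1.37% ± 0.418, then processed pseudogenes with 0.531% ± 0.0269, processed transcripts with 0.345% ± 0.0194, antisense genes with 0.262% ± 0.0371 and TEC genes, loci that the annotators hold for experimental checks, with 0.227% ± 0.0582. Of 5559 lincRNAs 338 were detected (6.08%), with a median of 2.25 FPKM where detected protein-coding genes had 7.93 FPKM. Whether reads were counted by strand is not given in the sources used here, so reads on antisense, sense intronic and other overlapping genes cannot be told apart from those of the genes they overlap.

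A few lincRNAs carried much of that share. *Malat1*, a nuclear speckle RNA, was at 192, 657, 683 and 679 FPKM and came after *mt-Co1* and *Eef1a1* by mean CPM, with 0.134% of the counts in control 1 and 0.459% to 0.477% in the others. *Miat*, known from the developing retina as Gomafu, was at 935, 2032, 2254 and 2372 CPM, and *Meg3*, the maternally expressed RNA of the imprinted *Dlk1* locus, had a mean of 1206 CPM. The host gene *Mir124a-1hg* had a mean of 969 CPM, followed by *Xist*, whose mean of 925 CPM came from control 4. Among processed transcripts, *Six3os1*, which is transcribed opposite the eye-field gene *Six3*, led with a mean of 362 CPM, followed by *Rian*, of the same imprinted locus as *Meg3*, with 299 CPM. With *Xist* left out, lincRNAs took 0.832%, 1.38%, 1.41% and 1.48% of the counts, and with *Malat1* left out as well 0.699%, 0.924%, 0.931% and 1.01%. Control 1 was the lowest with and without these genes.

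**Figure D4:**
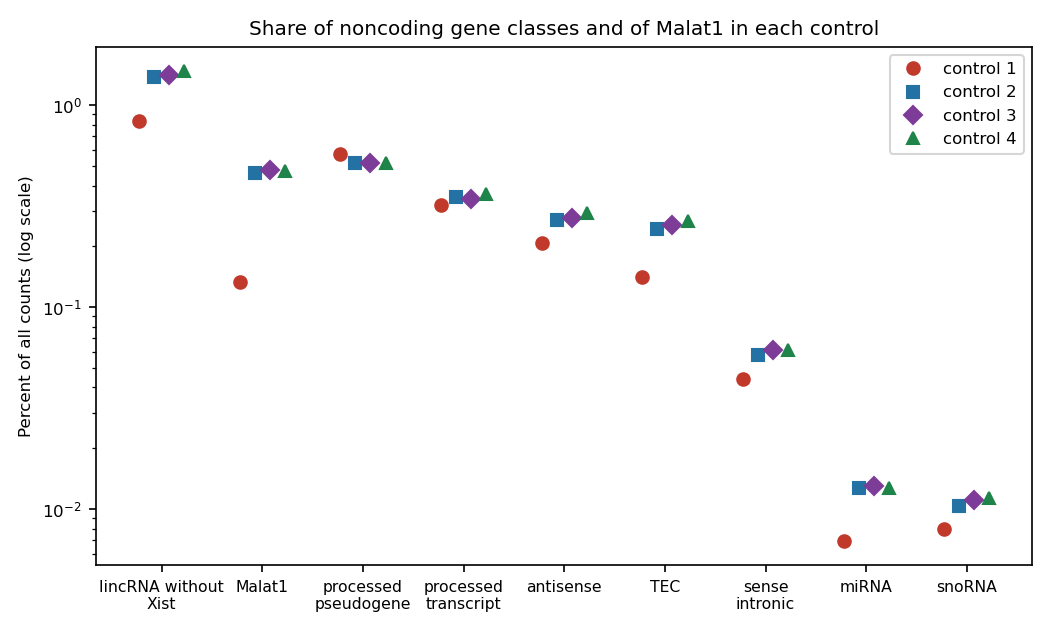
Percent of each library's counts (log scale) on noncoding biotypes, with lincRNA shown without Xist and Malat1 shown alone, for the 4 controls. Control 1 was lowest for lincRNA without Xist (0.832%), Malat1 (0.134%), antisense (0.208%) and TEC genes (0.141%), and highest for processed pseudogenes (0.572%).

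Some long noncoding host genes of miRNAs are among the abundant noncoding RNAs, although the libraries cannot measure the mature miRNAs themselves. Of 401 noncoding genes at a mean of 10 CPM or more, 20 held, on the same strand, 51 of the 1005 hairpins in the RefSeq table for GRCm38.p6. The share of less abundant noncoding genes that hold a hairpin was not computed, and *Mir124a-1hg* is not among the 20 hosts. All 3 hairpins of miR-9, which acts in late retinal progenitors and in neurogenesis, lay in such hosts, named here after their values were seen: *C130071C03Rik*, which holds *Mir9-2*, was at 228, 229, 203 and 211 CPM, *Mir9-3hg* at 25.2 ± 4.86 CPM and *Gm3764*, which holds *Mir9-1*, at 21.0 ± 2.31 CPM. *Mir17hg*, the host of the proliferation-linked miR-17-92 cluster with 6 hairpins, was at 36.5 ± 1.72 CPM, and *H19*, which holds *Mir675*, at 202, 194, 169 and 177 CPM. The mature sequences of miR-9 and of the arms of the cluster that share a seed, or nearly so, are shown with the seed (bases 2 to 8) in capitals.
mmu-miR-9-5p: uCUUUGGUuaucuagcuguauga
mmu-miR-9-3p: aUAAAGCUagauaaccgaaagu
mmu-miR-17-5p: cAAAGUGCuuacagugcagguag
mmu-miR-20a-5p: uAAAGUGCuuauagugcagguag
mmu-miR-18a-5p: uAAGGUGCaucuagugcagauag
miR-17-5p and miR-20a-5p have the same seed, AAAGUGC, and miR-18a-5p has AAGGUGC. A single mature miR-9-5p is made from all 3 hairpins, so the levels of the hosts cannot be added into a level of the miRNA.

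The spread among the controls was set largely by control 1. The biological coefficient of variation (BCV, the variation between samples beyond counting error, estimated by edgeR over 16150 genes that passed its filter on low counts) had a median of 14.6%, and of 9.87% without control 1. Leaving out control 2, 3 or 4 in place of control 1 gave 16.8%, 15.9% and 15.3%. The observed CV fell with the level: its median was 22.2% in 4909 genes with a mean of 1 to 10 CPM, where counting error alone gives 13.5%, 10.9% in 8204 genes of 10 to 100 CPM (counting error 3.95%), 9.70% in 2638 genes of 100 to 1000 CPM (1.86%) and 10.5% in 40 genes above that (0.598%). Above 10 CPM counting error was therefore a minor part of the spread. On principal components of log2(FPKM + 1), the first held 64.5% of the variance, with control 1 at 30.3 and the others between -14.3 and -3.54, and the second held 23.0%, with control 4 at 16.3 and controls 2 and 3 at -10.5 and -8.68.

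Among genes at a mean of 10 CPM or more, the 10 with the largest SD of log2 CPM were all lens or sex-linked genes: *Xist*, *Eif2s3y*, *Ddx3y*, *Cryaa* and the gamma crystallins *Cryga*, *Crygb*, *Crygc*, *Crygd*, *Cryge* and *Crygf*. The 10 with the smallest SD were *Tfdp1*, *Oaz1*, *Sike1*, *Anks6*, *Brd9*, *Ppp3cb*, *Cep83*, *Arl2bp*, *Pspc1* and *Nin*. *Tfdp1*, the dimerisation partner of E2F factors, was at 112, 113, 112 and 111 CPM. Outside the lens and sex-linked lists, the genes of largest spread, picked after their values were seen, included *Slc15a2*, a peptide transporter, with 959, 1506, 116 and 2651 counts, the small nuclear RNA gene *Rn7sk* with 520, 611, 125 and 137 counts, *Cacna1i*, a T-type calcium channel, with 1262, 1627, 329 and 1604 counts, and *Srp54b* with 391, 328, 89 and 365 counts. Control 3 was the lowest in each of these 4 genes and in 5 of the 10 genes of largest spread outside those lists, and the lowest library differed among the rest.

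To describe each library, its log2 CPM (TMM-scaled, prior count 2) was set against the median of the other 3 controls, and genes more than 2-fold away were counted among the 16150. The filter keeps genes that are counted in all 4 libraries, so the Y-linked genes and most lens genes are not among them. In control 1, 161 genes (0.997%) lay above and 506 (3.13%) below. In control 2, 48 genes (0.297%) lay above and 37 (0.229%) below, in control 3, 33 (0.204%) above and 61 (0.378%) below, and in control 4, 85 (0.526%) above and 42 (0.26%) below. The median distance from the others was 0.27 on the log2 scale for control 1 and 0.12 to 0.14 for the rest. Control 1 was the highest of the 4 in 38.0% of genes and the lowest in 37.9%, so its departure ran in both directions. For control 3 these shares were 21.8% and 21.9%.

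The genes that were low in control 1 were mostly noncoding. Of 2462 noncoding genes 306 (12.4%) lay more than 2-fold below the other controls in control 1, against 200 of 13688 protein-coding genes (1.46%). In controls 2, 3 and 4 the share was 0.853%, 0.569% and 0.812% of noncoding genes. It was 0.117%, 0.343% and 0.161% of protein-coding genes. Noncoding genes thus had the larger share in every control, and both shares were largest in control 1. By biotype, 118 of 395 TEC genes (29.9%), 12 of 55 sense intronic genes (21.8%), 64 of 484 antisense genes (13.2%), 43 of 437 lincRNAs (9.84%) and 24 of 257 processed transcripts (9.34%) were low in control 1. Processed pseudogenes went both ways in control 1, with 26 of 518 low (5.02%, against 3.13% of all genes) and 27 high. By the size of the difference alone, the genes farthest below in control 1 were *Gm15446*, *Gm37899*, *5430434F05Rik*, *Gm26971* and *Gm6741*. *Gm37899* had 3, 73, 98 and 59 counts in controls 1 to 4, and *Gm6741* had 4, 59, 72 and 76. *Gm15446* had 8, 189, 176 and 14 counts and so was low in controls 1 and 4 alike. The low noncoding RNAs of control 1 came together with its higher share of mitochondrial counts (2.38%), and the part of RNA quality in this was not tested.

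Single protein-coding genes far from the other controls, listed after their values were seen and with lens genes set aside, also differed by library. In control 1 they included the endothelial genes *Cdh5* (214, 69, 56 and 53 counts), *Adgrf5* (113, 25, 27 and 39) and *Adgrl4* (124, 30, 35 and 38), and *Slc38a5*, an amino acid transporter, with 67, 16, 17 and 13 counts. In control 2, *Sumo2*, a ubiquitin-like modifier, was low at 2441, 790, 2446 and 3072 counts. *Tmsb15b1* had 4, 44, 4 and 53 counts and *Neurog1* 6, 8, 29 and 31 counts, which divide the libraries into pairs that differ from gene to gene. With the Y-linked genes, the noncoding *Gm29650*, at 96, 83, 91 and 0 counts, was among the 5 genes farthest below in control 4.

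Some groups of cell type genes moved together in control 1. On the log2 scale, the medians of its deviations were 0.65 for rod, 0.59 for shared photoreceptor, 0.43 for Müller glia and 0.37 for retinal ganglion cell genes. They were -0.27 for cell cycle, -0.50 for progenitor regulators, -0.21 for postmitotic precursor, -0.25 for amacrine and -0.42 for horizontal cell genes. Over all genes the median deviation was -0.00094, and the median distance, which ignores direction, was 0.27. Control 1 was the highest library in 15 of 16 rod genes, 14 of 15 shared photoreceptor genes and 14 of 14 ganglion cell genes on this scale, against 38.0% of all genes, and the lowest in 16 of 21 cell cycle genes and 14 of 16 progenitor regulators, against 37.9% of all genes. Control 1 was the lowest in 9 of 15 postmitotic precursor genes and the highest in 3. It was the lowest in 9 of 15 amacrine and 5 of 7 horizontal cell genes, and the highest in 1 and 2. In size, the shifts of cell cycle, postmitotic precursor and amacrine genes did not exceed the median distance of single genes in this library. That distance is a measure without direction. Müller glial genes were divided, with control 1 the highest in 8 of 12 and the lowest in 3, and the medians of cone and bipolar genes were 0.33 and 0.10. Few members passed 2-fold, among them these: *Nxnl1* (15.3, 9.14, 5.08 and 5.32 FPKM) among rod genes and *Guca1a* among shared genes lay above, and *Sfrp2*, *Neurog2* and *Gad2* below. Control 3 was at the other end for photoreceptors, the lowest in 15 of 16 rod and 14 of 15 shared photoreceptor genes, against 21.9% of all genes, with medians of -0.31 and -0.25.

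In control 1 the endothelial, microglial and astrocyte lists deviated more than any list of retinal neurons, Müller glia or progenitors. The pericyte list deviated less than the rod list. In control 1 the median was 1.16 for 16 endothelial, 1.01 for 13 microglial, 0.83 for 5 astrocyte and 0.60 for 5 pericyte genes that passed the filter, and 10, 7, 2 and 2 of them lay more than 2-fold above the other controls, against 0.997% of all genes. Control 1 was highest in 15 of 16 endothelial and 12 of 13 microglial genes, and control 3 lowest in 13 of 13 microglial and 11 of 16 endothelial genes, where the shares over all genes were 38.0% and 21.9%. The 3 erythrocyte genes that passed the filter ran the other way, with medians of -1.45 and -0.88 in controls 1 and 2 and 0.76 and 0.62 in controls 3 and 4. In control 4 the 8 lens genes that passed the filter had a median of 5.11, while the medians of the lists of retinal neurons and glia lay between -0.20 and 0.16.

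**Figure D5:**
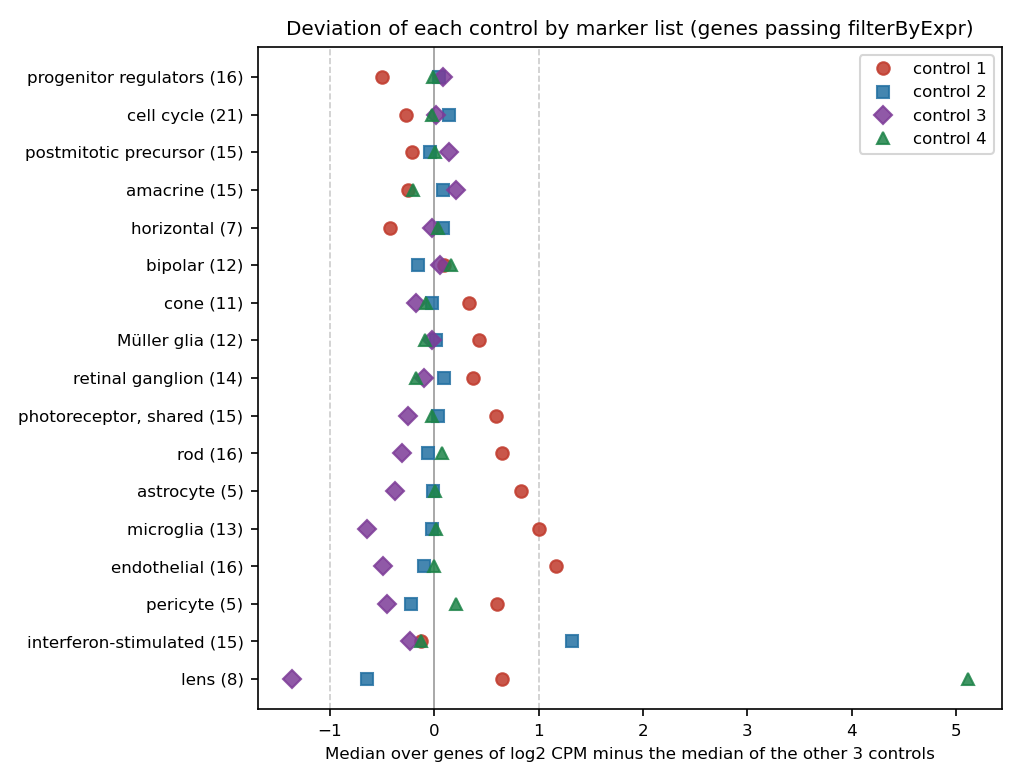
Median over the genes of each list of log2 CPM in a control minus the median of the other 3 controls, with 1 symbol per control and dashed lines at 2-fold. Control 1 was at 1.16 for endothelial and 1.01 for microglial genes and at -0.50 for progenitor regulators, control 2 was at 1.32 for interferon-stimulated genes, and control 4 at 5.11 for lens genes.

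Control 2 was set apart by interferon-stimulated genes, a list of 29 that was put together after its members had been seen among the outlying genes. The list as a whole was low, with 10 of 29 detected, and its summed level was 97.9, 203, 103 and 106 CPM. Of 15 genes that passed the filter, 10 lay more than 2-fold above the other controls in control 2 (median 1.32), and control 2 was the highest library in 13. Since the list was chosen for this, these counts only describe it. *Irf9*, a transcription factor of the interferon response, was at 1.48, 3.87, 1.62 and 1.54 FPKM. *Oasl2*, an antiviral 2′-5′ oligoadenylate synthetase-like gene, was at 2.17, 9.61, 2.36 and 2.80 CPM. *Usp18* had 13, 44, 8 and 4 counts, *Bst2* (tetherin) 41, 80, 12 and 10, and *Rtp4* 3, 23, 1 and 1. Control 2 was the highest in each of these 5 genes. Microglial genes were not high in control 2, where their median deviation was -0.02.

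Genes of basic metabolism were nearly all detected. The 17 glycolysis genes were all detected with a median of 55.5 ± 2.80 FPKM, led by *Pkm* (pyruvate kinase) at 434 ± 37.0 FPKM and *Ldha* (lactate dehydrogenase) with a mean of 427 FPKM. *Gapdh*, often used as a reference gene, was an exception at 273, 1332, 287 and 314 counts (3.42, 19.9, 3.63 and 4.62 FPKM). Near-identical pseudogene copies exist, of which 5 in the table held 0, 3, 0 and 0 counts, and *Iffo1* overlaps it on the opposite strand, so its level is uncertain, and it was far below the other glycolytic enzymes in every library. Of 83 cytosolic ribosomal protein genes 81 were detected, with a median of 156 ± 15.1 FPKM, and of 94 nuclear genes of the respiratory chain 88 were, with 46.9 ± 3.73 FPKM. Control 1 was the highest library in 54 of 81 ribosomal and 69 of 89 respiratory chain genes that passed the filter, against 38.0% of all genes. All 17 synapse genes were detected (19.6 ± 1.97 FPKM), among them the vesicle protein *Syp* and the fusion protein *Snap25* with means of 80.2 and 75.2 FPKM. The 15 genes of the m6A machinery, which writes, erases and reads N6-methyladenosine on mRNA, were all detected with a median of 14.4 ± 0.770 FPKM, from the reader *Ythdf3* with a mean of 31.1 FPKM to *Rbm15*, of the writer complex, with 4.30 FPKM, and the catalytic subunit *Mettl3* was at 6.11 ± 0.372 FPKM. Replication-dependent histone genes, whose mRNAs lack poly(A) tails, had 15 of 67 detected and a median of 0.625 FPKM. Of 17 tubulin genes 13 were detected (33.6 FPKM), and of 37 genes of the mitochondrial genome 23 (45.4 ± 8.54 FPKM), the undetected ones being 13 tRNA genes and *mt-Atp8*.

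Among genes of acute responses, 72.7% of immediate early and 77.8% of hypoxia response genes were detected, against 59.6% of protein-coding genes. The lists are short, and these differences were not tested. Of 11 immediate early genes 8 were detected, with medians of 3.52, 2.25, 1.26 and 1.15 FPKM in controls 1 to 4, and *Jun*, a subunit of the AP-1 factor, had a mean of 24.0 FPKM. Of 9 hypoxia response genes 7 were detected (medians of 8.99 to 11.4 FPKM). *Slc2a1*, the glucose transporter, and *Vegfa*, the vascular growth factor, had means of 87.4 and 50.1 FPKM. Of 6 genes of the ciliary margin, the rim of the retina towards the lens, 3 were detected (median 1.25 FPKM), with median deviations of -0.05 to 0.02 in the 4 controls. Immediate early genes were highest in control 1 by list median.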

How the data were processed

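Total RNA of mouse retinas was sequenced as 150-base paired-end reads on an Illumina HiSeq from NEBNext Ultra libraries. Per the methods, the authors filtered reads, aligned them with HISAT2 to GRCm38 (mm10) and obtained gene counts from featureCounts; CASAVA is also named in the submitters' processing notes. The annotation release and the strand setting are not given in the sources used here. The deposited values used are raw counts per gene for 54532 genes; the same table holds gene lengths, coordinates, biotypes and transcription factor families, and per the GENCODE vM21 annotation 54495 identifiers matched and 53585 also had the same coordinates and strand. Only the 4 control columns were used, and no normalized values of the authors entered.

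From these counts, CPM and FPKM were computed with library totals, and the level of a list was its median FPKM in each library. With edgeR 4.0.16 (R 4.3.3), filterByExpr run on a single group left 16150 genes, which were scaled by TMM (factors 0.994 to 1.01), and given log2 CPM with a prior count of 2 and BCVs from an intercept-only fit; DESeq2 1.42.0 gave alternative size factors and dispersions. Tables and figures were made in Python 3.11.15 with numpy 2.4.6, pandas 2.3.3 and matplotlib 3.10.9. No comparison between groups was made, and the only rule applied to the spread within the group was Dixon's ratio for a single outlying library. The samples, gene lists and rules were chosen with earlier results of these data known, and the list of interferon-stimulated genes after its members were seen here. Genes are named where they are the 3 markers or members of the 33 lists described, the 25 highest by FPKM, the 10 highest by CPM, the 5 highest of each of the 3 largest biotypes after protein-coding, the 15 highest transcription factors, the 10 of largest and smallest SD at a mean of 10 CPM or more, or the 5 farthest above and below in each control at a mean of 1 CPM or more; others are marked where named. Alternatives were other detection limits, TPM, TMM-scaled FPKM, other filters, normalizations, prior counts and fold limits, and leaving out each library. Some genes that these rules cover are not reported here.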

Additional observations from a re-analysis of the deposited data

Results flagged for a closer look

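Among the 4 controls, a single library stood apart, by Dixon's ratio of its gap from the nearest value to the whole range (above the 95% limit for 4 values), in 20 of 85 values examined: control 1 in 9, control 2 in 3, control 3 in 1 and control 4 in 7. Chance alone passes this limit in about 5% of groups, but the genes among these 85, and the list of interferon-stimulated genes as a whole, were partly chosen after their values were seen, so the count cannot be read against that share.

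Control 1 was low in the mean log2 CPM of progenitor regulators (6.40, others 6.88 to 6.94), in the share of counts on miRNA genes (0.00691%, others 0.0127% to 0.0131%) and in *Malat1* (1338 CPM, others 4590 to 4767 CPM). It was high in the share of processed pseudogenes (0.572%, others 0.515% to 0.520%) and of the mitochondrial genome (2.38%, others 1.69% to 1.76%). It was also high in *mt-Co1* (9708 CPM, others 6360 to 6655 CPM), *Rlbp1* (331 CPM, others 192 to 194 CPM), *Cdh5* (11.1 CPM, others 2.93 to 4.25 CPM) and *Gfap* (59.5 CPM, others 20.6 to 26.8 CPM).

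Control 2 was high in the mean log2 CPM of interferon-stimulated genes (2.67, others 1.55 to 1.67), a list chosen for that, in *Oasl2* (9.61 CPM, others 2.17 to 2.80 CPM) and *Gapdh* (82.1 CPM, others 14.1 to 19.1 CPM). Control 3 was low in the mean log2 CPM of genes of the retinal pigment epithelium (3.29, others 3.46 to 3.48). Control 4 was high in *Xist* (3695 CPM), *Cryaa* (1176 CPM), *Crygd* (786 CPM) and *Crybb1* (418 CPM), and had 0 counts of *Eif2s3y*, *Kdm5d* and *Uty*, which were at 127 to 132, 76.2 to 82.3 and 32.1 to 37.9 CPM in the others. What set these libraries apart was not tested.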

How the results depend on the processing

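No paired analysis was possible because the report compares no groups. Of 126 alternatives of the main values, 85 moved them by less than an SD, or a count by less than 1.5 times. The cause was not tested where they moved by more. The SD was taken between libraries, except for the BCV and the first principal component. For these it was the SD of the values with each library left out, so those values were judged by their own spread. The number of detected genes (14914) was 16384 at 0.5 CPM, 13408 at 1 FPKM and 14995 to 15452 with a library left out. The share of the 10 highest genes fell to 2.76% when mitochondrial genes were left out of the totals. In TPM, which gives larger numbers than FPKM here, the medians were 70.9 for rod, 106 for Müller glial and 72.5 for cell cycle genes. Over detected genes alone the Müller median was 48.1 FPKM. The median BCV was 9.87% to 16.8% with a library left out, lowest without control 1, and 33.7% over all genes with a count. The first principal component held 63.5% to 81.3% with a library left out and 46.9% over all genes. The counts of genes beyond the fold limit, above and below, were 64 and 155 in control 1, 12 and 24 in control 2, 7 and 31 in control 3 and 30 and 12 in control 4 at a mean of at least 5 CPM. Over all genes with a count they were 947 and 3315, 1648 and 890, 1370 and 820, and 2064 and 799. At a limit of 1.5-fold they were 851 and 1755, 276 and 327, 318 and 402, and 557 and 258. Over protein-coding genes alone, an alternative chosen after seeing the data, 200 lay below in control 1, 27 above and 16 below in control 2, 11 above in control 3, and 34 above and 22 below in control 4. In each of these settings control 1 had the most genes below. Differences under the counting error of a gene, which was 13.5% at the median for genes of 1 to 10 CPM, were not detectable at this depth.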
